A study of Homo sapiens with 8 samples.

Results

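The genes described here encode regulators of G protein signalling (RGS), measured in L363 cells given the IKKβ inhibitor MLN120b. They were chosen by gene symbol, RGS followed by a number, and selected on having values on 5 or more of the 8 arrays. RGS16 was then set against the other members because earlier results showed its ratios to differ, so its values and theirs are a description and carry no test. The rule kept 26 of 34 annotated RGS features, which belong to 15 genes, out of 15246 features on the array. A feature is 1 spotted probe, and features of a gene are numbered here in order of their number of values.

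L363 is an established human plasma cell line, labelled multiple myeloma from bone marrow, and no separate clones or genetic changes are named. Cells received 12.5 µM MLN120b at 37 °C for 8 h (2 samples), 12 h (3 samples) or 24 h (3 samples). Each sample was labelled with Cy5 and hybridised on its own array against Cy3-labelled RNA of L363 cells given DMSO, the solvent. The DMSO time is not given in the labels, no array had the dyes exchanged, and the labels do not tell whether the samples are separate cultures. The spread given, and any p-value, may therefore be technical. Values are log2 ratios centred on each array's median. The ratio most likely runs as MLN120b over DMSO (Cy5 over Cy3), which no source states. If it ran the other way, each direction below would be the opposite.

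RGS proteins bind the active, GTP-loaded α subunit of a heterotrimeric G protein and speed up its GTP hydrolysis, which ends the signal from a G protein-coupled receptor. In lymphocytes this limits responses to chemokines, and RGS1 and RGS13 are known regulators of B cell migration. MLN120b blocks IKKβ, the kinase that starts the degradation of IκB and so frees NF-κB. The family falls into the R4, RZ, R7 and R12 subfamilies: R4 proteins are mostly little more than the RGS domain, R7 proteins pair with the G protein β subunit GNB5, and RGS12 and RGS14 of R12 carry further domains that bind Ras family and Gα proteins.

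The promoters of RGS16, RGS1 and RGS2, all on chromosome 1, are shown because RGS16 was lower on every array while its R4 relatives RGS1 and RGS2 had no direction that held. They are RefSeq sequences of build GRCh38.p14, from 250 bases before to 50 after the gene's start, 5′ to 3′ on the gene's strand. Capitals mark a match to the degenerate κB consensus or to TATAAA, both searched on both strands.
RGS16, chr1:182604340-182604639, minus strand: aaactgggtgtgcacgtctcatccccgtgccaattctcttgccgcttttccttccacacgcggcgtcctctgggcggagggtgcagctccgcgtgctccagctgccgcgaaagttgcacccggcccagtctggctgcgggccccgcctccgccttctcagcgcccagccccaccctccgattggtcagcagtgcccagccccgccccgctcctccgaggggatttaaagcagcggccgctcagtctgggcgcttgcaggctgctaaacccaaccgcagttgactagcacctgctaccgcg
RGS1, chr1:192575523-192575822, plus strand: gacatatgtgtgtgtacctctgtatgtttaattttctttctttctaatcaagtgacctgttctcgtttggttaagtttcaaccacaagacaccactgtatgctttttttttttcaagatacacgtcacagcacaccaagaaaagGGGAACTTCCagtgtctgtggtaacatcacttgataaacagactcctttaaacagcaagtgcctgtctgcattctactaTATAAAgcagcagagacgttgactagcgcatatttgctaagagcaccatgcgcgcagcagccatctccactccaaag
RGS2, chr1:192808789-192809088, plus strand: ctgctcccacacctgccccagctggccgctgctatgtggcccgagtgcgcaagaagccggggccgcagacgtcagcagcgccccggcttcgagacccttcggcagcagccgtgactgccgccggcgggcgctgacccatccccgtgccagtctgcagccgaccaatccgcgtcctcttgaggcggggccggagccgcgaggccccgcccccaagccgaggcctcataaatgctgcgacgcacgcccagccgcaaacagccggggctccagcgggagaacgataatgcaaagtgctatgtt
The RGS1 window held 1 κB match on its own strand, beginning at position -106, and 1 TATAAA at position -27. The windows of RGS16 and RGS2 held neither. Among 35116 windows of this length 11.3% held the κB consensus and 11.5% held TATAAA. Of the other RGS genes with members, 10 had a window of this length, none with the κB consensus and only RGS6 with TATAAA. The GC content was 67.0% for RGS16, 69.7% for RGS2 and 41.7% for RGS1, against a median of 58.7% over all windows. No match means only that these letters are not in the window.

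The arrays differed widely in spread, which bears on every ratio below. The SD over features ran from 0.213 to 1.42, and between 6344 and 13007 features had a value. The experiment numbers in the labels fall into 3 groups of neighbouring values, here called number groups. Group 1 is sample 3 of 12 h and of 24 h. Group 2 is sample 2 of 8 h with sample 1 of both later times. Group 3 is sample 1 of 8 h with sample 2 of both later times. The 3 widest arrays are those of group 2 and the 3 narrowest those of group 3. What the numbers stand for is not given. Of the NF-κB target genes NFKBIA, TNFAIP3 and NFKB2, all 15 features in the fit had means below 0 (median -0.85). None passed limma's test over all features, and 12 had an unadjusted p under 0.05 for the mean over the 3 times. Of all 10817 features, 5566 had a mean over arrays below 0 and 312 had such a p. These genes were chosen with earlier results of these data known, so they are no independent check. Ratios give no levels, so the plasma cell label could not be checked by level: features of all 10 plasma cell markers, all 7 T cell markers and 3 of 8 myeloid markers were in the fit, and their part in the results was not tested.

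RGS16 was lower in inhibitor-treated cells on every array, and its mean was lowest at 24 h. RGS16 is an R4 member that acts on Gαi and Gαq and restrains chemokine signalling in lymphocytes. Feature 1, with values on all 8 arrays, read -0.27 and -0.79 on samples 1 and 2 at 8 h. At 12 h it read -1.16, -0.32 and -0.38 on samples 1, 2 and 3. At 24 h it read -2.54, -0.57 and -0.96 on the same sample numbers. The lowest value, on sample 1 at 24 h, lay far below the rest, and the values at the 3 times overlapped. The mean was -0.87 ± 0.75 (SD, n = 8 arrays), 1.83-fold lower. Means by time were -0.53 ± 0.37 (SD, n = 2) at 8 h, -0.62 ± 0.47 (SD, n = 3) at 12 h and -1.36 ± 1.04 (SD, n = 3) at 24 h. Without sample 1, the lowest at both later times, they were -0.35 at 12 h and -0.77 at 24 h (n = 2 each). Feature 2 had no value on the 3 arrays of group 3. It read -0.46 on sample 2 at 8 h, -1.04 and -0.82 on samples 1 and 3 at 12 h, and -1.92 and -0.94 on samples 1 and 3 at 24 h. Its mean was -1.03 ± 0.54 (SD, n = 5). Both features were thus below 0 wherever they had a value, 13 values in all.

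The size of the RGS16 ratio followed the spread of the number groups. Feature 1 averaged -1.50 in group 2 (n = 3), -0.67 in group 1 (n = 2) and -0.38 in group 3 (n = 3), and -0.50 without group 2 (n = 5). Its rank among all features of an array is not changed by a common scaling of that array. The rank can still shift with noise and with which features have a value, and neither was tested. Feature 1 stood at the 8.01 and 15.1 percentiles at 8 h, at 14.01, 10.3 and 24.2 at 12 h, and at 0.946, 1.65 and 1.30 at 24 h, in the order of sample numbers. Every 24 h percentile was below every earlier one. Feature 2 stood at 26.5 for sample 2 of 8 h, at 16.8 and 8.42 for samples 1 and 3 of 12 h, and at 2.96 and 1.42 for those of 24 h.

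**Figure D1:**
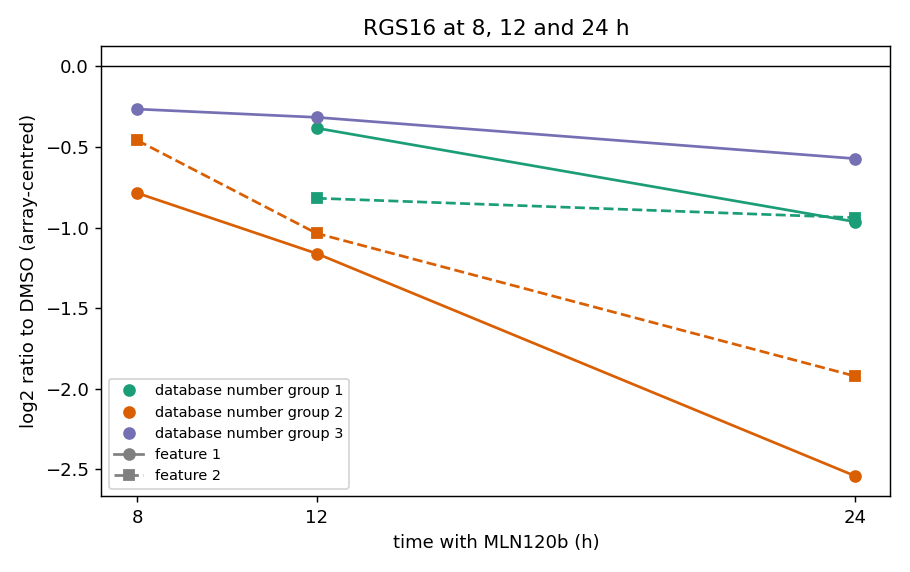
Array-centred log2 ratio of the RGS16 features (y axis) against hours with MLN120b (x axis). Each point is 1 array, colours are number groups, solid lines with circles are feature 1 and dashed lines with squares feature 2. All 13 points lie below 0, and every line is lower at each later time.

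Within each number group RGS16 was lower at every later time. In group 2 feature 1 went from -0.79 at 8 h to -1.16 at 12 h and -2.54 at 24 h, in group 3 from -0.27 to -0.32 and -0.57, and in group 1 from -0.38 at 12 h to -0.96 at 24 h. Ordered by sample number instead, samples 1 and 3 fell at each step, while sample 2 read -0.79 at 8 h, -0.32 at 12 h and -0.57 at 24 h. The 2 orders differ only in which 8 h array goes with which later ones, and which of them joins arrays of a common origin is not given in the labels. Of 4413 features with values on all 8 arrays, 248 (5.62%) were lower at each later time within every number group, and 5 (0.113%) were also below 0 on every array. Besides RGS16 these were a feature each of NFKB2, the precursor of the p52 subunit, and WNT10A, a secreted Wnt ligand, and 2 features with no gene listed. The NFKB2 feature ran from -0.55 to -3.08 and the WNT10A feature from -0.086 to -1.54. This order and these genes were picked out after the values were seen.

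Below 0 on every array with a value were 2 of 26 RGS features, both of RGS16, where 2.40% of all features with 5 or more values were. Above 0 on every array were 0 of 26, against 2.05% of all such features. In limma's fit, which held 25 of the 26 (RGS11 feature 2 had no value at 8 h), 0 RGS features passed for the mean over the 3 times, where 0.0185% of 10817 features were called. The same count was 0 at 8 h (0.0647% called), 0 at 12 h (0% called) and 0 at 24 h (0% called). Because the members were chosen with these ratios known, nothing is read from these counts. Over all features the fit called 2, 7, 0 and 0 for the mean, 8 h, 12 h and 24 h, and 312, 220, 303 and 214 had an unadjusted p under 0.05. Each of the latter lies below the 541 expected by chance. The fit takes 1 spread per feature for all arrays, though the arrays differed widely in spread. A feature that did not pass is therefore not shown to be unchanged. Of all tested features 1.28% had a lower mean over arrays than RGS16 feature 1, and 0.906% a lower mean than feature 2. Feature 2 has no value in number group 3, which holds the narrowest arrays, so the 2 ranks rest on different arrays.

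The other R4 genes had no direction that held over the arrays. RGS1, an early activation gene of B cells that limits chemokine responses, has 2 features. Its feature 1 read -0.033 and 0.74 at 8 h, 0.34, -0.44 and 0.51 at 12 h, and 0.93, -0.11 and 0.38 at 24 h, in the order of sample numbers. The 3 values below 0 are those of group 3, and the mean was 0.29 ± 0.46 (SD, n = 8), or 0.061 without group 2. Feature 2 of RGS1 averaged 0.0038 ± 0.82 (SD, n = 7). It ran from -1.44 (sample 3, 12 h) to 1.10 (sample 2, 8 h). Its features differed by up to 1.95, on sample 3 at 12 h. RGS2, which prefers Gαq, read 0.075 and 1.26 at 8 h, -0.24 and -0.35 on samples 2 and 3 at 12 h, and 0.21, -0.097 and -0.26 at 24 h. Its mean, 0.087 ± 0.55 (SD, n = 7), was -0.11 without sample 2 at 8 h. RGS2 is 1 of 3 RGS features, of 18 with values on at least 2 arrays at both times, whose 8 h arrays all lay on one side of 0 and whose 12 h arrays all lay on the other. Of all such features 4.42% did so, and the difference between these times was not tested. RGS2 had no value on sample 1 of 12 h, so its number groups differ between these times.

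RGS13, a germinal centre B cell gene, had 3 members with means of 0.25, 0.22 and -0.36 over 6, 6 and 5 arrays. Their highest value was 2.05 (feature 1, sample 1 of 12 h) and their lowest -1.83 (feature 3, sample 3 of 12 h). Without those arrays features 1 and 3 averaged -0.11 and 0.0078. The RGS4 features averaged -0.13, 0.012 and -0.058, RGS3 -0.14 and RGS5, a gene of vascular mural cells, 0.0037. None of these means exceeded its SD over arrays.

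Among members outside the R4 subfamily RGS9 stood highest and none stood near RGS16. RGS9, an R7 member known from photoreceptors and striatum, averaged 0.52 ± 0.49 (SD, n = 6) on feature 1 and 0.49 ± 0.92 (SD, n = 5) on feature 2. Feature 1 lay above 0 on 5 of 6 arrays and feature 2 on 3 of 5, and without sample 2 at 8 h (1.99) feature 2 averaged 0.12. RGS9 feature 3, no member with its 4 values, averaged -0.73, or 0.21 without the -3.56 on sample 3 at 12 h. The other R7 members ranged from -0.16 for RGS11 feature 1 to 0.19 for RGS7. RGS20, the RZ member, which acts on Gαz, was at -0.044 ± 0.40 (SD, n = 7).

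Among R12 genes the RGS10 features, of a small protein found in lymphoid and myeloid cells, stood at -0.15 ± 0.70 and 0.22 ± 0.79 (SD, n = 8). Both were low on sample 1 at 24 h (-1.66 and -1.55) and they lay apart for sample 2 of 8 h (-0.69 and 1.10). Without sample 1 at 24 h their means were 0.063 and 0.47. The RGS14 features averaged -0.022, -0.24 and -0.15, and RGS12 0.24 ± 0.93 (SD, n = 5), or -0.17 without the 1.89 on sample 2 at 8 h.

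**Figure D2:**
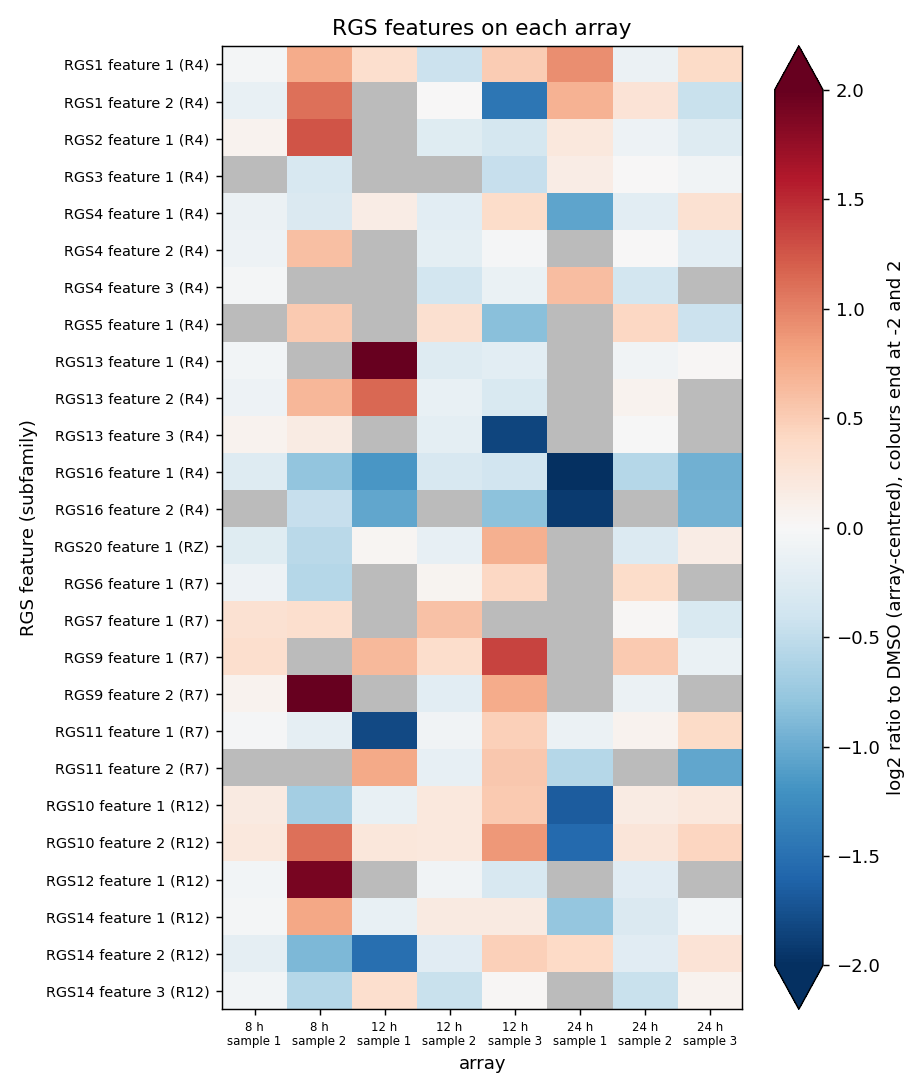
Heat map of the 26 RGS features (rows, with subfamily) on the 8 arrays (columns). Red is above and blue below the array median on the array-centred log2 scale, colours end at -2 and 2, and grey has no value. The RGS16 rows are blue on each array with a value, and the other rows change colour between arrays.

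**Figure D3:**
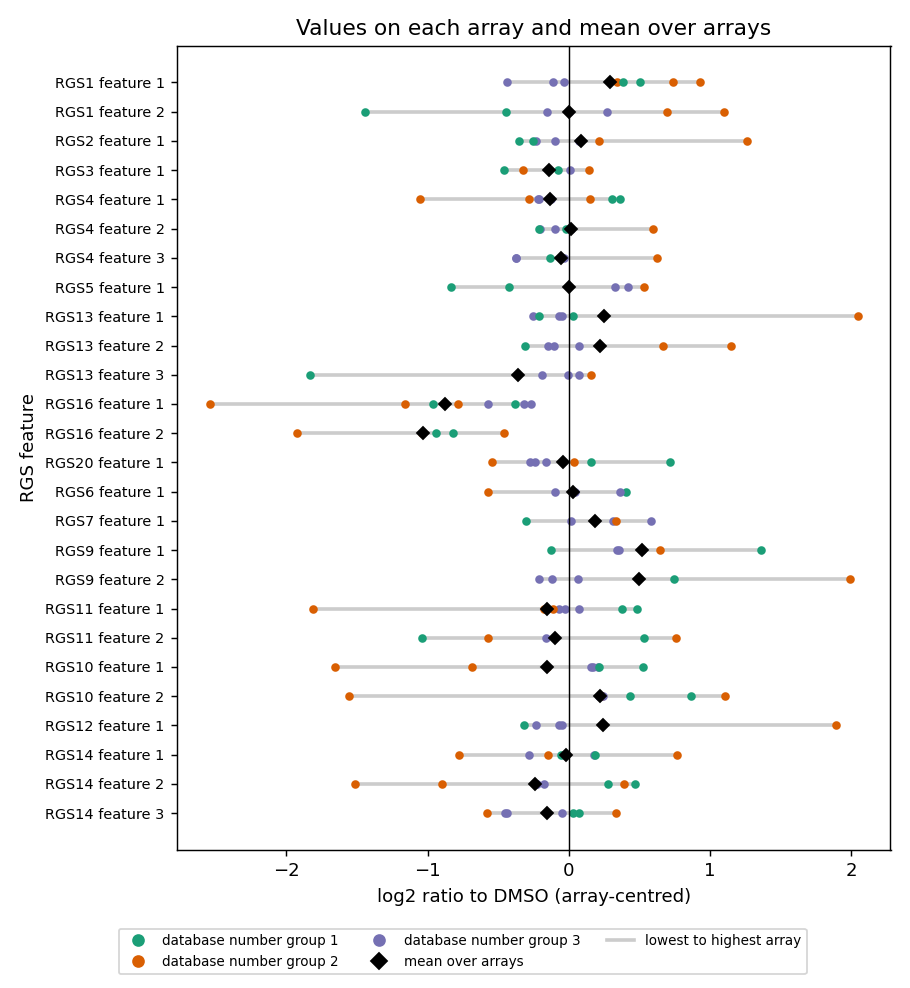
Array-centred log2 ratio (x axis) of each RGS feature (y axis). Small points are arrays coloured by number group, grey lines run from the lowest to the highest array, and diamonds are means over arrays. The RGS16 lines alone do not reach 0, and the outermost points are mostly of number group 2.

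Over the 24 features of other RGS genes the mean over arrays lay between -0.36 and 0.52, with a median of 0.0037, and 11 were below 0 and 13 above. All 10817 tested features had a median of -0.0077 over the same quantity. Of the 24 means 12 changed sign without number group 2, and 9 without the array that held the feature's largest value. Features of a gene often disagreed. The RGS16 features had the same sign on 5 of 5 shared arrays and differed by a median of 0.33. Those of RGS1 shared a sign on 3 of 7 arrays, RGS4 on 2 of 7, RGS14 on 3 of 8 and RGS10 on 6 of 8.

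On each array RGS16 lay below the median of the other RGS features that passed the limit of 5 arrays. The difference was -0.23 and -1.05 at 8 h, -1.33, -0.16 and -0.78 at 12 h, and -2.25, -0.56 and -0.94 at 24 h, in the order of sample numbers, with RGS16 taken as the mean of its features on the array. It averaged -0.91 ± 0.67 (SD, n = 8), and -0.64 ± 0.58 (SD, n = 2), -0.76 ± 0.59 (SD, n = 3) and -1.25 ± 0.88 (SD, n = 3) at 8 h, 12 h and 24 h. Sample 1 set much of the later means: without it they were -0.47 at 12 h and -0.75 at 24 h (n = 2 each). The 24 h mean without sample 1 lay near the 12 h mean that includes it, and below the 12 h mean without it. Within number groups 1, 2 and 3 it averaged -0.86, -1.54 and -0.32, and without group 2 it was -0.53 ± 0.34 (SD, n = 5). None of these other features was lower than RGS16 on 3 arrays: sample 1 of 8 h and samples 1 and 2 of 24 h. On the other arrays between 1 and 3 of them were, on sample 3 at 24 h RGS11 feature 2 alone. Features left out by the limit were not counted. Of those, RGS13 feature 4 was lower than RGS16 on sample 1 of 8 h (-0.321 against -0.265). RGS12 feature 2 was lower on sample 2 of 24 h (-0.63 against -0.572).

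**Figure D4:**
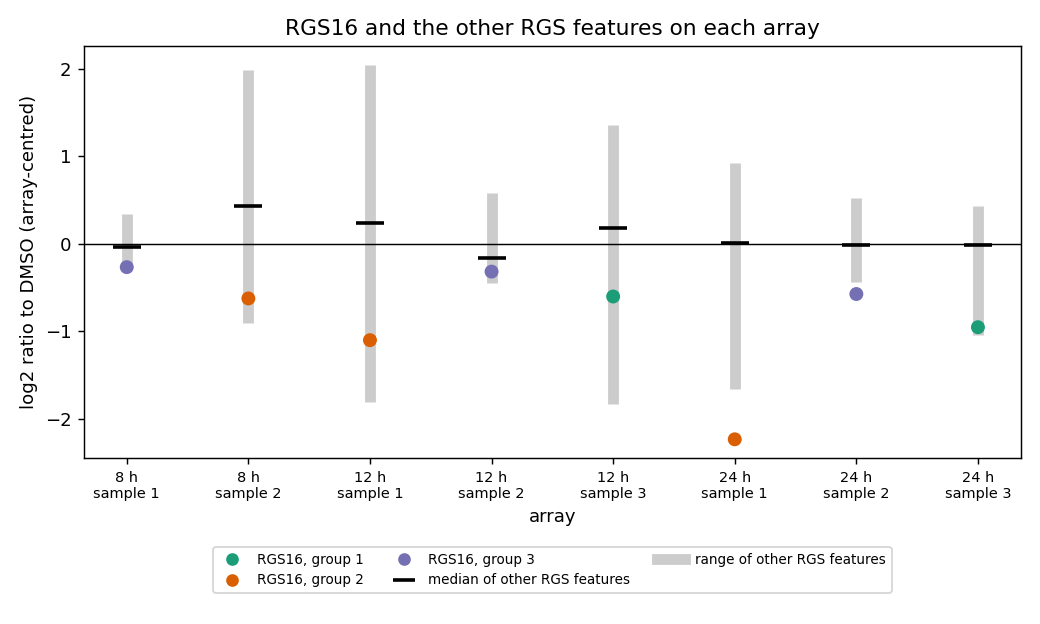
Array-centred log2 ratio (y axis) of RGS16 (points, the mean of its features, coloured by number group) and of the other RGS features (black bars, median; grey bars, lowest to highest) on each array (x axis). RGS16 is below the black bar on all 8 arrays, and below the whole grey range for sample 1 of 8 h and samples 1 and 2 of 24 h.

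Likeness of pattern was measured as Pearson's r over arrays, after each array was divided by its scaled median absolute deviation. It is a description, since arrays of a number group resemble each other and many features were compared. Over 8 arrays the named genes most like RGS16 feature 1, among 3238 features, were NBN (r = 0.963), CDK7 (r = 0.961) and SMAD2 (r = 0.961). Their means over arrays were -0.021, -0.26 and -0.19, so the order of arrays was alike and the size was not. RGS1 feature 1 was most like MDH2 (r = 0.971), PSENEN (r = 0.959) and CDC16 (r = 0.952) over 8 arrays. RGS2 was most like IFNAR1 (r = 0.969), ASAH1 (r = 0.959) and SMC6 (r = 0.948) over 7. Between members r was -0.33 for RGS16 and RGS1 (n = 8), 0.29 for RGS16 and RGS2 (n = 7) and 0.26 for RGS1 and RGS2 (n = 7).

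Other genes of G protein signalling had no feature that passed at any time. Of all 10817 features the fit called 2 for the mean, 7 at 8 h and 0 at 12 h and at 24 h. A count of 0 in a list therefore says little about its genes. At single times between 0 and 3 features of a list had an unadjusted p under 0.05. The counts are of features in limma's fit, for the mean over the 3 times, with 0 called in each list, at any time, and values are fitted means ± SE of single features, over 8 arrays unless another n is given. Of 23 features of α subunits, the direct partners of RGS proteins, 11 were below 0 and 12 above (median 0.012, 0 with an unadjusted p under 0.05). The features at the extremes were GNAI2 at -0.55 ± 0.32, GNAI1 at -0.53 ± 0.29 (n = 5), GNAI3 at 0.35 ± 0.27 (n = 5) and GNAS, the stimulatory subunit, at 0.40 ± 0.21 (n = 7). Features of a gene disagreed here too: the other GNAI1 feature stood at 0.11, the 5 of GNAI3 began at -0.040 and the 6 of GNAS at -0.14. For β and γ subunits 8 of 15 were below 0 (median -0.073, 0 unadjusted), from GNB2 at -0.46 ± 0.28 and GNB1 at -0.43 ± 0.24 to GNG4 at 0.36 ± 0.26 (n = 5) and GNGT2 at 0.65 ± 0.53 (n = 5), which reached 3.43 on 1 array. The 4 GNB2 features lay between -0.46 and -0.073.

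Of 49 receptor features 27 were below 0 (median -0.047, 2 unadjusted). CXCR4, the CXCL12 receptor of plasma cell homing, stood at -0.58 ± 0.19 on its lowest feature, which was below 0 on 8 of 8 arrays, between -1.71 and -0.14 (adjusted p = 0.962 in limma). The 6 CXCR4 features ran from there to 0.037, and 5 were below 0. A CCR1 feature stood at -1.33 ± 1.38 (n = 5) and reached -9.22 on 1 array, and the 5 CCR1 features extended up to -0.036. CCR6 was at 0.36 ± 0.21 and the higher of 2 CCR2 features at 0.30 ± 0.23 (n = 5 each), the lower at 0.034. Of 24 effector and desensitization features 12 were below 0 (median -0.014, 0 unadjusted), from PLCB3 at -0.89 ± 1.07 (n = 7) and GPSM3 at -0.73 ± 0.45 to PRKAR2B at 0.31 ± 0.17 (n = 6) and PDE4B, a cAMP phosphodiesterase, at 0.74 ± 0.65 (n = 5). Single arrays reached -8.89 for PLCB3, -4.07 for GPSM3 and 4.18 for that PDE4B feature, which was below 0 on 3 of 5 arrays. The 3 PRKAR2B features began at -0.33 and the 4 of PDE4B at -0.096. Among 19 features of other genes with an RGS-like domain 13 were below 0 (median -0.091, 1 unadjusted). These ran from ARHGEF11 at -1.38 ± 1.13 (n = 5) and ARHGEF1 at -0.35 ± 0.21 to AKAP10 at 0.36 ± 0.16 (n = 7) and GRK6 at 0.76 ± 0.23 (n = 5). ARHGEF11 reached -7.51 on 1 array, the 3 AKAP10 features began at -0.091 with 2 below 0, and the other GRK6 feature stood at 0.23. The median over all 10817 features was -0.0086.

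The limit of 5 arrays left out 8 RGS features. Just outside it, 5 features with 4 values had means of -0.40 and 0.38 (RGS13), -0.10 (RGS7), -0.73 (RGS9) and 0.015 (RGS12). The RGS13 feature at -0.40 was below 0 on all 4 of its arrays, and the one at 0.38 was above 0 on all 4. That of RGS9 held -3.56 on sample 3 at 12 h. Just inside, the 10 features with 5 values had means from -1.03, of RGS16 feature 2, to 0.49, of RGS9 feature 2. A further 2 features, of RGS7 and RGS13, had 1 value each, and 1 of RGS13 had none.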

How the data were processed

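RNA of MLN120b-treated and DMSO-treated L363 cells was compared on 8 2-colour arrays, per the labels. The authors deposited 1 log2 ratio per feature and array. How they corrected background, filtered spots, normalized or centred is not stated in the labels. Base 2 was read from the values, whose largest size (12.4) exceeds a natural log ratio of 16-bit intensities (11.1), and is assumed for all arrays. Intensities were not used here, so how far a spot stood above background is not known, and precision rests on the number of arrays. Each array was centred on its median, which ran from -0.48 to 0.001 as deposited.

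GEO's platform annotation gave 1 gene for 10169 features, several for 4 and none for 5073. Symbols were updated through RefSeq names of GRCh38.p14 (10128 by Entrez, 17 by accession, 24 kept). RGS members were matched by the annotation's symbol, and 13 of 15 genes had a RefSeq promoter window.

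Each feature was fitted on its own with limma 3.58.1 (R 4.3.3; lmFit, eBayes), with a mean per time over all 8 arrays, for 10817 features with values on 5 or more arrays and at each time. Ratios were tested against 0 (2-sided; Benjamini-Hochberg, threshold 0.05), so the spread of the control is not included. The fit was tested on simulated data. Other values and plots were made in Python 3.11.15 (pandas 2.3.3; plots with matplotlib 3.10.9). Named in the text are all RGS members, the members of each list with the 2 lowest and 2 highest means, NFKBIA, TNFAIP3 and NFKB2, and the 3 named genes most like RGS16, RGS1 and RGS2. Members and lists were chosen with earlier results of these data known. Alternatives were other scalings and filters, gene averages, blocks by sample number or number group, array weights and arrays left out.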

Additional observations from a re-analysis of the deposited data

Results flagged for a closer look

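For 3 RGS features every array at 8 h lay on one side of 0 and every array with a value at 12 h on the other. RGS2 went from a mean of 0.67 at 8 h to -0.29 at 12 h, a difference of -0.96 (n = 2 and 2). RGS13 feature 3 went from 0.11 to -1.01, a difference of -1.12 (n = 2 and 2). RGS6 went from -0.34 to 0.23, a difference of 0.56 (n = 2 and 2). None of these differences was tested. They are 3 of 18 RGS features with values on at least 2 arrays at both times, where 4.42% of all such features lay on opposite sides. At 8 h the RGS2 mean rested on 1.26 and the RGS6 mean on -0.57, both on sample 2. At 12 h that of RGS13 feature 3 rested on -1.83 on sample 3. None of these features had a value on sample 1 of 12 h. Their 8 h arrays are thus of number groups 2 and 3, and their 12 h arrays of groups 3 and 1. Within group 3 RGS2 went from 0.075 to -0.24, RGS13 feature 3 from 0.069 to -0.19 and RGS6 from -0.097 to 0.047.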

How the results depend on the processing

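RGS16 minus the other RGS features kept its sign under all 21 alternatives, between -1.27 (without number group 3) and -0.53 (without number group 2), and between -1.02 and -0.72 with 1 array left out. With the sample number as a replicate block it was -0.86, with array weights -0.60 and with arrays scaled to one spread -0.77. The mean of RGS16 feature 1 over the 3 times, -0.83, ran from -1.10 to -0.46, and that of feature 2, -0.94, from -1.14 to -0.68. Of the 23 other RGS features in the fit 13 turned sign under at least 1 alternative. Of 448 values of RGS features under alternatives 0 moved by over 1 SD of the feature's single arrays. A mean over arrays usually moves by much less than that when 1 array is left out. This count could thus hardly differ from 0 and gives no support. Leaving out number groups was chosen after seeing the data.

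The numbers of features called over the whole array depended on the processing. For the mean over 3 times, 2 became 1 with quantile normalization, 4 with scaled arrays, 6 with the number group as a block, 7 with array weights and 22 without number group 3. It became 0 with values on 2 arrays at each time, on all 8 arrays, with the replicate block, with 1 mean per number group and without number groups 1 or 2. At 8 h, 7 became 0 with quantile normalization, both filters, both blocks and without number group 2, 1 without group 1 and 33 without group 3. At 12 h, 0 became 2 without group 1 and 1 without group 3. At 24 h, 0 became 6 with quantile normalization, 2 with array weights and 2 without group 3. With 1 array left out the ranges were 0 to 81 for the mean and 0 to 209 at 8 h, both highest without sample 1 at 8 h, and 0 to 2 at 12 h and at 24 h. Where 1 array of 8 h remained, it was assumed to vary like the other times. The cause was not tested.

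Whether sample numbers pair the arrays differed by time. Deviations from the time means correlated at 0.19, 0.31 and 0.24 for same-numbered arrays of 12 h and 24 h, which also share a number group. They correlated at -0.35 to -0.17 for the 4 same-numbered pairs with an 8 h array, where the 2 deviations mirror each other. The 7 pairs of a common number group lay between 0.17 and 0.35. Whether the 8 h numbers are exchanged is not known, and the number group as a block exchanges them. A mean per number group cannot give values by time.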
